A study of Mus musculus with 36 samples.

Results

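The 7 genes described here encode receptors that mark and steer mature B cells: the BAFF receptor (Tnfrsf13c), TACI (Tnfrsf13b), the IgM Fc receptor (Fcmr), Fc receptor-like A (Fcrla), CD23 (Fcer2a), Fc receptor-like 1 (Fcrl1) and the inhibitory IgG receptor FcγRIIb (Fcgr2b). They are 7 of the 15083 genes that could be tested in whole blood, taken by gene name from the array, where they are read by 9 probes on 18 spots, all of which passed the filters on background and spread. The set was chosen from results of the same arrays, in which Fcmr, Tnfrsf13c, Fcrla and Fcer2a stood among the genes that fell most against controls. Differences of the members from controls are therefore given as a description without a test, and the comparisons between exposures reuse arrays on which that choice rested.

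The blood came from 36 male C57BL/6J mice, irradiated at 8 to 10 weeks of age and bled by cardiac puncture 7 days later, with 6 mice in each of 6 groups. One group was sham-irradiated, and one received 3 Gy of x-rays. In 3 groups a mixed field of x-rays and neutrons gave the same 3 Gy, with neutrons making up 5%, 15% or 25% of it, which corresponds to 0.15, 0.45 and 0.75 Gy of neutrons. The last group received 0.75 Gy of neutrons without x-rays, an exposure named 100% neutron in the sample titles and 83% neutron in the methods because the source also emits photons. The total dose of this group differs from that of the x-ray group, so dose and radiation quality cannot be told apart between them. The 25% field and the neutron group share the neutron dose and differ in the x-rays. The study asked whether a neutron component can be recognized from blood gene expression.

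BAFF is a cytokine made largely by myeloid and stromal cells, and the BAFF receptor passes its survival signal to mature B cells by removing TRAF3 and releasing the kinase NIK. TACI binds BAFF and the related ligand APRIL, restrains B-cell numbers and supports antibody responses. The Fc receptors report what antibody is already present: FcμR binds IgM, CD23 binds IgE with low affinity and also binds the complement receptor CD21, and FcγRIIb dampens the B-cell receptor when both are bound by one immune complex. Fcrl1 is an activating co-receptor of B cells, and Fcrla is an intracellular relative retained in the endoplasmic reticulum. FcγRIIb differs from the others in that monocytes and neutrophils also carry it, and TACI in that plasma cells do. In whole blood, fewer cells of a type and less RNA per cell cannot be told apart.

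For both BAFF-binding receptors the array carries a pair of probes that sit in different parts of the transcript, and the results below differ between the probes of Tnfrsf13b. The coding-region probes are given 5′ to 3′ as on the array, in lower case throughout because the whole 60-mer binds. The dimmer Tnfrsf13c probe starts at base 91 of the transcript and lies on the minus strand at chr15:82054616-82054675 of mm9, and the brighter one starts at base 1817 at chr15:82052203-82052262. The dimmer Tnfrsf13b probe starts at base 175 and lies on the plus strand at chr11:60954823-60954882, and the brighter one starts at base 408 at chr11:60960405-60960464.
Tnfrsf13c, dimmer probe: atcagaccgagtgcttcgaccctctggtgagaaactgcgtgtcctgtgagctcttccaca
Tnfrsf13b, dimmer probe: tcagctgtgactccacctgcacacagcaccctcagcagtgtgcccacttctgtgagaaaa
Tnfrsf13b, brighter probe: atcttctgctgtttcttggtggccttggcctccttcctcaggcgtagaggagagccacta

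The other 5 members have 1 probe each. On mm9, the probe of Fcmr is at chr1:132777256-132777315 on the plus strand, that of Fcrla at chr1:172848103-172848162 and that of Fcgr2b at chr1:172890988-172891047, both on the minus strand. The Fcer2a probe is at chr8:3682343-3682402 on the minus strand and the Fcrl1 probe at chr3:87195973-87196032 on the plus strand. The Fcgr2b probe is printed on 10 spots, which were averaged, and every other probe is on 1 spot. Exons are not annotated in the files, so each probe is placed by its transcript base and genome position.

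Signals are log2 values relative to the median probe of the array, so a value of 0 is the array's median. They are compared between groups within a probe and not between probes. The number of arrays limits the precision, and the arrays of a group are separate mice. Between 15569 and 21294 probes were well above background on an array, with a median of 19920 in controls and 16564 after neutrons. The arrays were scanned in 4 sessions. One held 5 control and 5 x-ray arrays, another 5 arrays each at 5% and 15%, another all 25% and neutron arrays, and the last a single slide with 1 array each of the control, x-ray, 5% and 15% groups. Of the 14 B-cell markers, all 14 were measured. The log2 of their summed signal, to which the brightest add most, lay between 11.7 and 12.5 in controls. It lay between 6.39 and 9.88 in x-ray mice, and between 10.6 and 10.96 in neutron mice. The mixed-field mice spanned 7.48 to 9.01 (5%), 6.69 to 8.97 (15%) and 7.43 to 8.99 (25%). Each B-cell marker was well above background on at least 1 array of every group, with the exception of Pax5 at 15%. The summed red-cell markers ran from 16.4 to 16.8 in controls and from 17.6 to 18.3 after neutrons, with values from 16.8 to 18.3 after x-rays and from 16.3 to 18.5 over the mixed fields. The part of other blood cells in the results below was not tested.

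**Figure D1:**
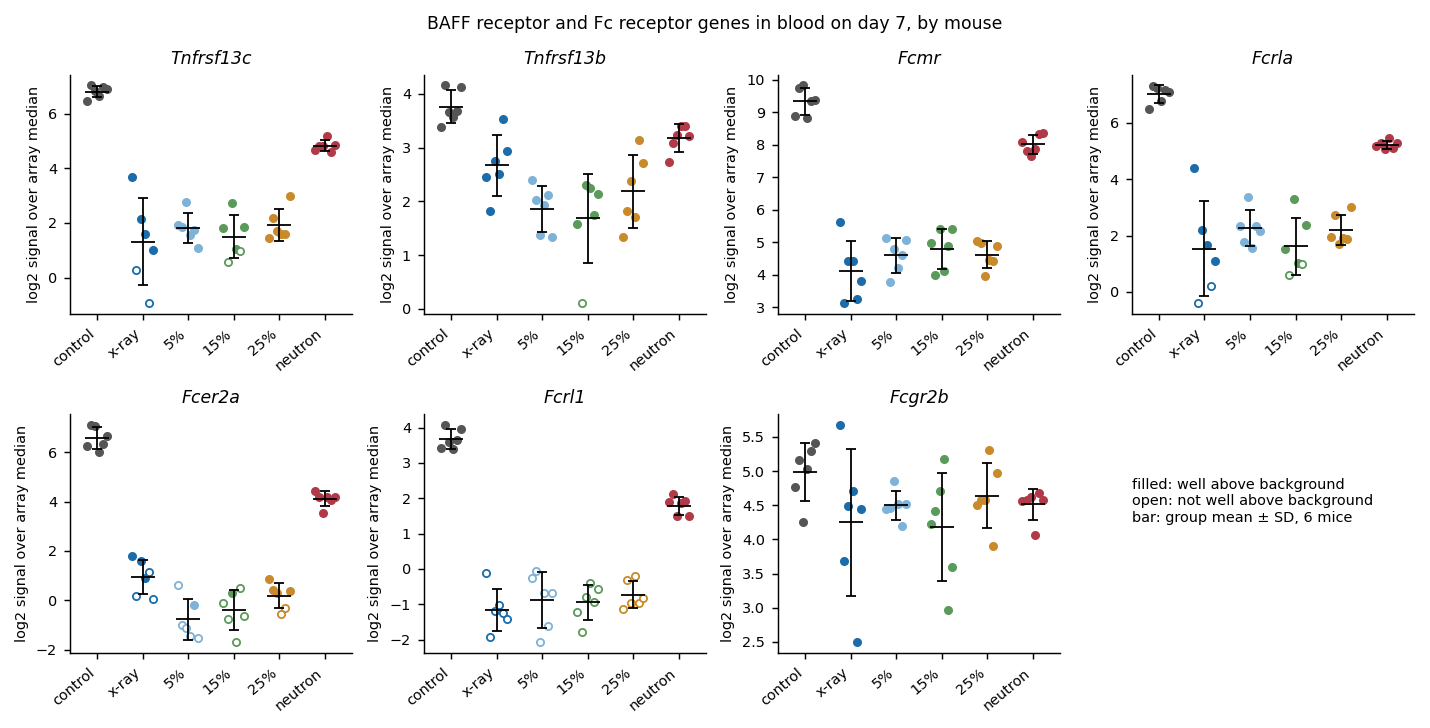
Log2 signal over the array median (vertical axis) of the 7 members in each mouse, by exposure group (horizontal axis); points are mice, filled where the probe was well above background, and bars are the mean ± SD of 6 mice. In 5 panels the neutron mice form a tight band below the controls and above every mouse given 3 Gy, whereas the groups of Tnfrsf13b and Fcgr2b overlap.

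Tnfrsf13c, the receptor on which mature B cells depend for BAFF survival signals, was at its highest in the controls, lower after neutrons and lowest in all 4 groups that received 3 Gy. In controls it ran from 6.47 to 7.04 with a median of 6.88, and after neutrons from 4.60 to 5.17 with a median of 4.83. After x-rays it ran from -0.93 to 3.70 with a median of 1.32. No mouse of one of these 3 groups overlapped the range of another, and the x-ray mice spread over the widest range. The medians of the mixed fields were 1.79 at 5%, with a range from 1.07 to 2.77, 1.43 at 15%, with a range from 0.59 to 2.74, and 1.65 at 25%, with a range from 1.45 to 2.99. The 4 groups of 3 Gy overlapped, and each gap between neighbouring means was smaller than the larger SD of the pair. Relative to controls, the mean was 45.5-fold lower after x-rays, between 29.8- and 39.8-fold lower in the mixed fields and 3.98-fold lower after neutrons. On 2 x-ray arrays and 2 arrays at 15% the probe was not well above background.

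Tnfrsf13b, which encodes TACI, differed far less from controls. Its brighter probe was well above background in all but 1 of 36 mice and ran from 3.38 to 4.16 in controls, with a median of 3.67. The neutron mice ran from 2.73 to 3.41 with a median of 3.22, and the x-ray mice from 1.82 to 3.54 with a median of 2.63. These 3 ranges overlapped in part. The median was 1.98 at 5%, with a range from 1.33 to 2.41, 1.94 at 15%, with a range from 0.11 to 2.30, and 2.10 at 25%, with a range from 1.34 to 3.15. All mice of the 3 mixed fields lay below all controls. The mean was 2.13-fold lower than in controls after x-rays, 3.72-fold at 5%, 4.22-fold at 15%, 2.98-fold at 25% and 1.498-fold after neutrons. From the controls down, the order was neutron, x-ray, 25%, 5% and 15%, and no gap below the controls exceeded the larger SD of the neighbours. Markers of plasma cells, which also carry TACI, were measured for 7 of 9 listed genes and their summed signal overlapped between all groups, from 7.92 to 8.63 in controls and from 7.55 to 9.54 over the exposures, with Derl3 and Sdc1 not well above background on any neutron array.

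Fcmr, the receptor through which B cells bind IgM, remained well above background in all 36 mice, so its range was fully measured. Controls ran from 8.83 to 9.83 with a median of 9.36, and neutron mice from 7.66 to 8.36 with a median of 7.98. The x-ray mice ran from 3.13 to 5.64 with a median of 4.11. None of these 3 groups overlapped another. The mixed fields had medians of 4.70 at 5%, 4.93 at 15% and 4.68 at 25%, and their mice lay between 3.77 and 5.42. The mean was 37.4-fold lower than in controls after x-rays, 26.8-, 23.3- and 26.3-fold lower in the 5%, 15% and 25% fields, and 2.49-fold lower after neutrons, the smallest neutron difference among the 5 members that separated from the controls.

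Fcrla followed Tnfrsf13c closely. Its signal ran from 6.48 to 7.30 in controls, with a median of 7.14, and from 5.05 to 5.46 after neutrons, with a median of 5.22. After x-rays it ran from -0.40 to 4.38 with a median of 1.39, and over the 3 mixed fields from 0.60 to 3.37. The x-ray mouse with the highest Fcrla, replicate 1, was also the highest x-ray mouse for Tnfrsf13c, Fcmr, Fcer2a, Fcrl1 and Fcgr2b. The mean was 44.7-fold lower than in controls after x-rays, 26.8-, 41.8- and 28.1-fold lower in the mixed fields and 3.46-fold lower after neutrons.

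Fcer2a, which encodes CD23, differed most from controls among the members, and here the x-ray mice were not the lowest. Controls ran from 6.02 to 7.12 with a median of 6.49, and neutron mice from 3.54 to 4.43 with a median of 4.199. The x-ray mice ran from 0.07 to 1.78 with a median of 1.03. At 5% the lowest mouse was at -1.52, the median at -1.05 and the highest mouse at 0.63. The corresponding values were -1.70, -0.38 and 0.51 at 15%, and -0.53, 0.34 and 0.88 at 25%. No mixed-field mouse reached the x-ray median. The probe was well above background on 3 x-ray, 1, 1 and 4 mixed-field arrays of 6 each, in the order 5%, 15% and 25%, so the measured folds against controls of 49.4 after x-rays, 162 at 5%, 126 at 15% and 83.4 at 25% rest in part on dim spots. After neutrons the mean was 5.51-fold lower, with all 6 arrays well above background.

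Fcrl1, an activating Fc receptor-like protein of B cells, was not well above background on any array of the 4 groups of 3 Gy, so only bounds can be given there. Controls ran from 3.38 to 4.08 with a median of 3.63, and neutron mice from 1.49 to 2.13 with a median of 1.87. Fcrl1 was at least 11.7-fold lower than in controls after x-rays, at least 12.95-fold at 5%, at least 11.3-fold at 15% and at least 14.6-fold at 25%. Such a bound sets the mean of the bright group against, on each dim array, the higher of its own spot and the lowest probe well above background. After neutrons the mean was 3.70-fold lower than in controls.

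Fcgr2b, the inhibitory IgG receptor, was the member nearest to controls in all 5 exposures. Controls ran from 4.26 to 5.42 with a median of 5.10, neutron mice from 4.07 to 4.67 with a median of 4.58, and x-ray mice from 2.49 to 5.68 with a median of 4.47. The mixed-field medians were 4.49 at 5%, 4.32 at 15% and 4.58 at 25%. Every group overlapped every other, and each gap between neighbouring means was smaller than the larger SD. The means lay between 1.28- and 1.74-fold below the control mean. Of 9 listed monocyte markers, 8 were measured, and their summed signal overlapped between all groups, from 9.71 to 10.7 in controls and from 9.27 to 11.4 over the exposures. Of 10 listed neutrophil markers, 9 were measured, from 11.3 to 13.9 in controls and from 11.5 to 14.9 over the exposures.

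**Figure D2:**
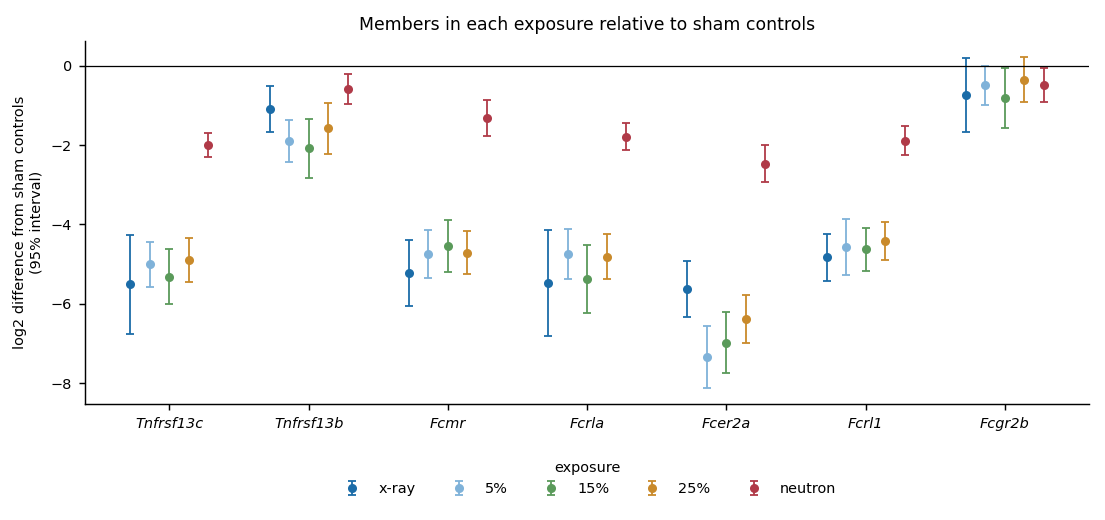
Log2 difference of each member from the sham controls (vertical axis) in 5 exposures (colours), with the 95% interval of the fitted difference over 6 mice a group. Tnfrsf13c, Fcmr, Fcrla, Fcer2a and Fcrl1 lie lower after 3 Gy than after neutrons, while Tnfrsf13b and Fcgr2b lie between -2.08 and -0.35, and the Fcrl1 points after 3 Gy are measured means of spots not well above background.

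A gene was called where limma's moderated test gave p below 0.001 together with a Benjamini-Hochberg adjusted p below 0.05 over all 15083 genes. Against controls, 5 of 7 members were called lower after x-rays, where 16.9% of all genes were called lower. The same held for 6 of 7 members at 5%, against 14.1% of all genes, 6 of 7 at 15%, against 16.5%, 6 of 7 at 25%, against 13.9%, and 5 of 7 after neutrons, against 20.5%. The members were chosen for this, so these counts are a description. Tnfrsf13b was the member called in the mixed fields and not after x-rays or neutrons, and Fcgr2b was not called in any of the 5. The contrast for Tnfrsf13b comes from the limit on the unadjusted p. At an adjusted p below 0.05 alone, 6 of 7 members passed in each of the 5 exposures, Tnfrsf13b among them. Of all 15083 genes, in either direction, 8879 passed that limit after x-rays and 8991 after neutrons. In the mixed fields 6717 passed at 5%, 7492 at 15% and 7092 at 25%. With slide as a block, 3 of 7 members were called at 5% and 3 of 7 at 15%, a fit that rests on 1 shared slide and in which 25 and 43 of the 15083 genes were called.

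The neutron mice were then set against the x-ray mice. Tnfrsf13c, Fcmr, Fcrla, Fcer2a and Fcrl1 were higher after neutrons, 5 of 7 members, where 6.5% of all genes were called higher. The median difference of the 7 members was 3.16 on the log2 scale, beside 0.09 over all genes. Of the 14 B-cell markers, 11 were called higher as well, with a median of 2.97. For Fcmr the difference was 3.91 ± 0.37 on the log2 scale (SE, n = 6 against 6), a 15.0-fold higher mean (limma, adjusted p = 3.78e-05). For Tnfrsf13c it was 3.52 ± 0.58, for Fcrla 3.69 ± 0.61 and for Fcer2a 3.16 ± 0.30. In these 5 genes all 6 neutron mice lay above all 6 x-ray mice. The share of all genes that separated in this way was not counted. For Fcrl1 the measured difference was 2.95 (limma, adjusted p = 3.78e-05), with no x-ray spot well above background. As a bound, which the test does not address, Fcrl1 was at least 3.17-fold higher after neutrons. Tnfrsf13b differed by 0.51 on the log2 scale, with a 95% interval from -0.05 to 1.07 (limma, adjusted p = 0.161), and Fcgr2b by 0.26, with an interval from -0.62 to 1.14 (limma, adjusted p = 0.666). All neutron and x-ray arrays were scanned in different sessions, and scan session cannot be told apart from exposure here. With normexp background correction none of the 6 members that could be tested was called, and 1 of 10617 genes was called in all.

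The neutron group and the 25% field received the same neutron dose and were scanned in the same session. The same 5 members were higher in the neutron mice, 5 of 7, where 4.02% of all genes were called higher. Of the 14 B-cell markers, 13 were called higher as well, with a median of 2.73 on the log2 scale. In each of the 5 members all 6 neutron mice lay above all 6 mice of the 25% field. The share of all genes that separated in this way was not counted here either. Fcer2a differed most, by 3.92 ± 0.25 on the log2 scale or 15.1-fold (SE, n = 6 against 6; limma, adjusted p = 1.33e-06). Fcmr was 10.6-fold higher, Fcrla 8.13-fold, Tnfrsf13c 7.49-fold and Fcrl1 at least 3.95-fold, with adjusted p-values (limma) from 1.94e-06 to 1.24e-05. For Fcrl1 the test is of the measured difference, 2.53, and not of the bound. Tnfrsf13b was 0.99 ± 0.29 higher, with 4 of 6 neutron mice above all 6 of the 25% field, and fell short of the limit on the unadjusted p (limma, adjusted p = 0.0235), though it was called when replicate 5 of the 25% field was left out, at 1.19. Fcgr2b differed by -0.12, with a 95% interval from -0.62 to 0.38 (limma, adjusted p = 0.728). With normexp background correction no member was called here either.

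No member was called between a mixed field and x-rays. At 5% none of the 15083 genes was called by limma (0%), with 3508 genes and 2 members at an unadjusted p below 0.05. At 15%, 4.09% of all genes were called and 0 of 7 members, with 4244 genes and 2 members at an unadjusted p below 0.05. At 25%, 2.61% of all genes were called and 0 of 7 members, with 4429 genes and 1 member at that unadjusted limit. Fcer2a came closest. Its difference from x-rays at 5% was -1.72 ± 0.42 on the log2 scale, with 5 of 6 mice below all x-ray mice (limma, adjusted p = 0.0774). The difference was -1.35 ± 0.42 at 15%, with 4 of 6 mice below (limma, adjusted p = 0.0541), and -0.76 ± 0.35 at 25%, with 2 of 6 below (limma, adjusted p = 0.170). On the 1 slide that held both groups the difference at 15% was 0.21, with the 15% array higher, and at 5% -0.27. A single limma model over all 36 arrays called 708 genes at 5% and 1543 at 15%. In that model Fcer2a was called lower at 5% (limma, adjusted p = 0.00729) and at 15% (limma, adjusted p = 0.00724). Tnfrsf13b differed by -0.80 at 5%, -0.98 at 15% and -0.48 at 25% on the log2 scale (limma, adjusted p = 0.161, 0.123 and 0.358). The other 5 members differed from x-rays by -0.07 to 0.74 on the log2 scale over the 3 fields, with 95% intervals of the difference that reach from -1.40 to 2.10.

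Between the mixed fields themselves, 0 of 7 members and 0% of all genes were called at 15% against 5%, and likewise 0 of 7 and 0% at 25% against 15%. At an unadjusted p below 0.05, limma found 320 and 826 genes in these comparisons and no member. The members differed by -0.64 to 0.36 on the log2 scale in the first and by -0.18 to 0.60 in the second, and in each case the groups overlapped.

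**Figure D3:**
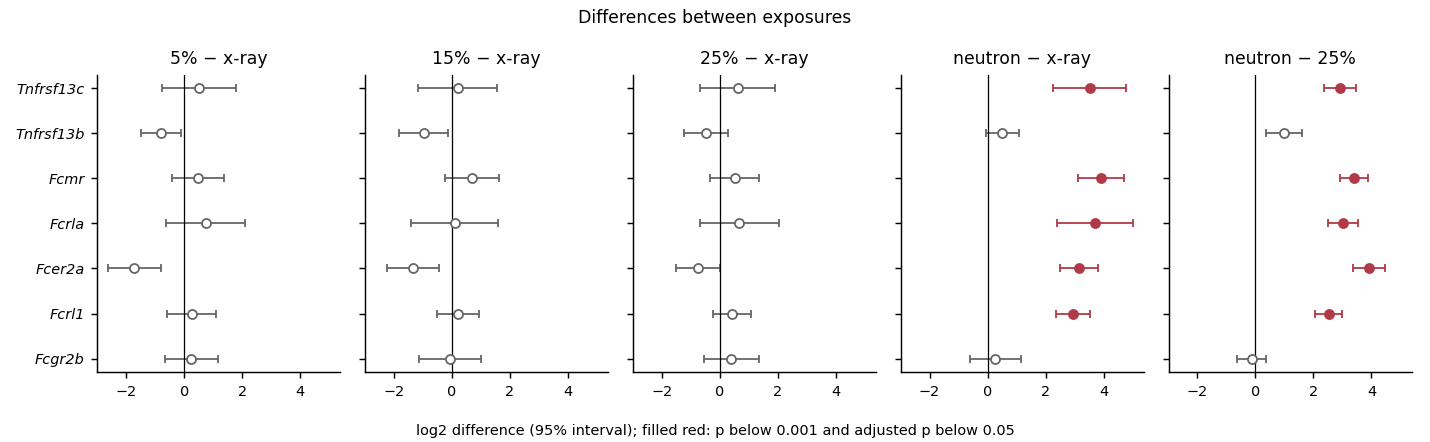
Log2 difference between exposures (horizontal axis) for each member (vertical axis) in 5 comparisons, with 95% intervals; filled red points passed the test. No member passed in the 3 panels of mixed fields against x-rays, and in both neutron panels 5 of 7 members stand to the right of zero.

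The dimmer probe of Tnfrsf13b, which lies upstream in the transcript, did not follow the brighter one. It ran from 0.38 to 0.97 in controls with a median of 0.86, and from 0.34 to 2.91 after x-rays with a median of 0.86, so the x-ray group did not lie below the controls. The mixed fields had medians of -0.76 at 5%, -1.55 at 15% and -1.76 at 25%, and the neutron mice a median of 0.30. In each of the 3 mixed fields all 6 mice lay below all 6 x-ray mice, by a narrow margin. The lowest x-ray mouse was at 0.34, and the highest mice at 5%, 15% and 25% were at 0.17, 0.14 and 0.23. The share of all probes that separated in this way was not counted. Tested over 17960 probes, the difference from x-rays was -2.21 ± 0.50 at 5% (limma, adjusted p = 0.0827), where 0% of probes were called and 3994 had an unadjusted p below 0.05. It was -2.37 ± 0.49 at 15% (limma, adjusted p = 0.0185), where 3.82% of probes were called. At 25% the measured difference was -2.47 (limma, adjusted p = 0.0327), where 2.47% of probes were called. As a bound, the x-ray mice were at least 2.53-fold higher there. The calls were those at 15% and 25%. The probe was well above background in 5 of 6 x-ray mice, in 1 mouse each at 5% and 15%, in no mouse at 25% and in 2 after neutrons. On the 1 slide that held the groups together, the x-ray mouse was at 0.34, not well above background, the 15% mouse at 0.14 and the 5% mouse at 0.17, differences of -0.20 and -0.17, and no 25% array was on it. Apart from that slide, scan session cannot be told apart from exposure here. The calls were not stable to the loss of single arrays, a check added once the values were known. With 1 array left out, the probe was called in 10 of 12 fits at 15%, in 4 of 12 at 25% and in 1 of 12 at 5%. Without the highest x-ray mouse, replicate 5, the difference was -2.01 at 15% (limma, adjusted p = 0.0340) and -2.11 at 25% (limma, adjusted p = 0.0567), called at 15% and not at 25%. At 15% the fits without replicate 4 or replicate 6 of that field lost the call.

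The dimmer probe of Tnfrsf13c, like the brighter one, had its highest median in the controls and the next in the neutron mice. Its median was 2.15 in controls and 0.25 after neutrons, where 1 non-uniform spot was dropped and 5 mice were left. The medians after 3 Gy were -0.77 after x-rays, -1.21 at 5%, -0.85 at 15% and -1.10 at 25%. Single mice stood far above their group, at 5.31 for replicate 1 at 5% and 3.28 for replicate 1 after neutrons. The neutron mice were 1.30 ± 0.80 above x-rays (limma, adjusted p = 0.246) and 1.56 ± 0.73 above the 25% field (limma, adjusted p = 0.132), neither called.

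**Figure D4:**
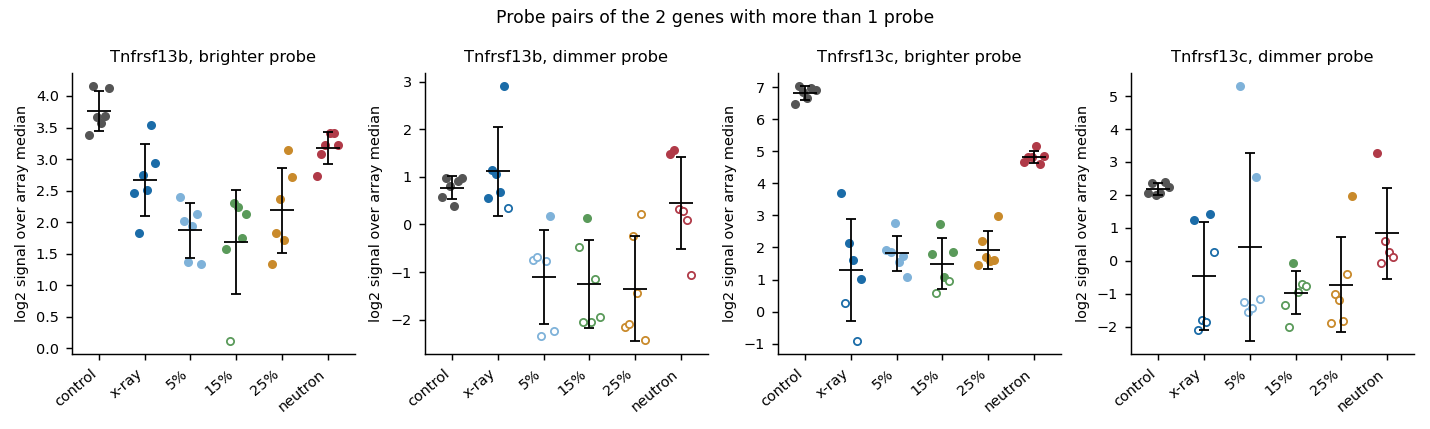
Log2 signal over the array median (vertical axis) for both probes of Tnfrsf13b and of Tnfrsf13c in each mouse, by exposure (horizontal axis), with filled points well above background and bars for the mean ± SD of 6 mice, or 5 for the dimmer Tnfrsf13c probe after neutrons. The dimmer Tnfrsf13b probe is as high after x-rays as in controls and low in the mixed fields, and the dimmer Tnfrsf13c probe has single high mice at 5% and after neutrons.

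Because B-cell genes as a group were lower after irradiation, each member was also expressed relative to 4 B-cell reference genes, Cd79a, Cd79b, Ms4a1 and Cd22, as its log2 signal minus their mean. These genes encode both signalling chains of the B-cell receptor, CD20 and the lectin CD22. The reference mean was 8.42 ± 0.34 (SD, n = 6) in controls, 4.18 ± 1.15 after x-rays, 4.83 ± 0.59 at 5%, 4.59 ± 0.89 at 15%, 4.71 ± 0.64 at 25% and 7.13 ± 0.19 after neutrons. Differences between exposures were tested over mice with a two-sided exact permutation test, whose smallest possible p with 6 against 6 is 0.00216, and adjusted over 49 tests. They are changes of one transcript against others, which alone does not say which of them changed. The limits of scan session named above hold here too.

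Relative to the reference, Fcgr2b and Tnfrsf13b lay above their control balance in all 5 exposures and the other 5 members lay below it, a comparison with controls given without a test. For Fcmr after neutrons the difference was -0.02 with these 4 genes, and it turned to 0.04 with all 14 B-cell markers as the reference. Fcgr2b was 3.51 above its control difference after x-rays, between 3.03 and 3.37 above it in the mixed fields and 0.82 after neutrons, all on the log2 scale. Tnfrsf13b was 3.16 above after x-rays, 1.70, 1.76 and 2.14 above in the 5%, 15% and 25% fields, and 0.71 after neutrons. The neutron mice differed from x-ray mice by -2.69 for Fcgr2b (exact permutation, adjusted p = 0.0133) and by -2.44 for Tnfrsf13b (exact permutation, adjusted p = 0.0318). They differed from the 25% field by -2.55 for Fcgr2b and -1.43 for Tnfrsf13b (exact permutation, adjusted p = 0.0133 for both). Without the reference, the neutron mice differed from x-ray mice by 0.26 for Fcgr2b and 0.51 for Tnfrsf13b. From the 25% field they differed by -0.12 and 0.99. The reference mean was 7.13 after neutrons, 4.18 after x-rays and 4.71 at 25%. The differences relative to the reference thus mainly restate that of the reference.

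Fcmr was at -0.02 from its control difference after neutrons and at -0.98 after x-rays. The neutron mice were 0.96 ± 0.22 above the x-ray mice and 0.98 ± 0.24 above the 25% field (exact permutation, adjusted p = 0.0133 for both). Fcer2a was at -1.38 from its control difference after x-rays, at -3.74, -3.14 and -2.66 in the 5%, 15% and 25% fields and at -1.17 after neutrons. At 5% it differed from x-rays by -2.37 ± 0.47 (exact permutation, adjusted p = 0.0133), and at 15% and 25% by -1.77 and -1.29 (exact permutation, adjusted p = 0.0619 and 0.0653). These values rest in part on dim spots, since the Fcer2a probe was well above background on 3 x-ray arrays, 1 array each at 5% and 15% and 4 at 25%. Apart from 1 shared slide, the mixed-field and x-ray arrays were scanned in different sessions, and no 25% array was on that slide. There Fcer2a itself, without the reference, differed from x-rays by -0.27 at 5% and by 0.21 at 15%. Relative to the reference, Fcer2a in neutron mice was 1.498 ± 0.31 above the 25% field (exact permutation, adjusted p = 0.0133). In neutron mice Fcrla was 0.60 above the 25% field (exact permutation, adjusted p = 0.0133) and Tnfrsf13c 0.48 above it (exact permutation, adjusted p = 0.0236), while Fcrla differed from x-rays by 0.74 without passing (exact permutation, adjusted p = 0.0579). Fcrl1 was between -0.97 and -0.58 from its control difference in the 5 exposures, none of its 7 tests passed, and 4 of its groups were dim. Of the 49 tests, 10 passed with the 4 reference genes and 9 with all 14 B-cell markers as the reference, where the Tnfrsf13c difference from the 25% field no longer passed (exact permutation, adjusted p = 0.0675).

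**Figure D5:**
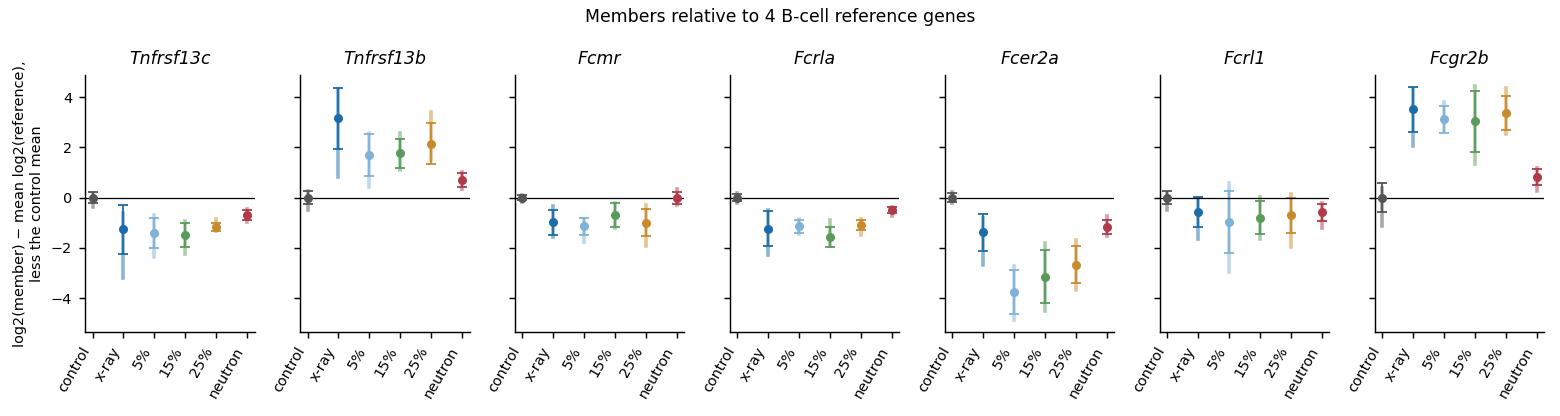
Log2 signal of each member minus the mean of 4 B-cell reference genes, shifted so that the control mean is 0 (vertical axis), by exposure (horizontal axis); dots are means, thin bars the SD and broad pale bars the range of 6 mice. Tnfrsf13b and Fcgr2b lie above zero after 3 Gy and nearer to it after neutrons, and Fcer2a is lowest at 5%.

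Across all 36 mice, the pattern of each member was compared with 11431 genes that were significantly above background on all of them, by the root mean square difference between log2 changes from the control mean. These likenesses describe arrays that share groups and slides and are given without a test. Nearest to Tnfrsf13c were Cd79b (0.64), Ly6d (0.71) and Cd79a (0.82), and nearest to Fcrla the same genes in the same order, at 0.49, 0.58 and 0.66. Ly6d is a surface marker of B-lineage cells. Fcmr was nearest to Il4i1, a secreted amino acid oxidase (0.51), Cd79a (0.51) and Ly6d (0.53). Fcrl1 was nearest to Il4i1 (0.49), H2-Ob, a chain of the MHC class II chaperone H2-O (0.54), and the chemokine receptor gene Ccr6 (0.56). Fcer2a had no near gene among those compared, with the sulfotransferase gene Chst3 nearest at 1.00, then the transcript ENSMUST00000192250 at 1.34 and Il4i1 at 1.89. Fcer2a and Fcrl1 were themselves not significantly above background on 2 and 6 arrays. Genes that became equally dim were thus left out of the comparison beforehand. Tnfrsf13b was nearest to Rltpr (0.42), Vamp1 (0.45) and Sfn (0.46). Fcgr2b was nearest to Tmem109 (0.27), Nck1 (0.28) and 1600012H06Rik (0.32), none of them B-cell markers of the list.

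Within groups, after each group mean was removed, mice that were high for one member were often high for some other genes. Over 36 mice, the highest within-group correlations of Tnfrsf13c were with ENSMUST00000103426, Bfsp2 and ENSMUST00000103749 (r from 0.89 to 0.91), and those of Fcrla with ENSMUST00000103749, Ly6d and AF138742 (r of 0.98 each). Those of Fcmr were with Cd79a, Ly6d and the B-cell coactivator gene Pou2af1 (r from 0.83 to 0.88). Fcgr2b varied with Il18, Faim and Zfp706 (r from 0.91 to 0.93), and Tnfrsf13b with Erp27, Lrfn1 and Gys1 (r from 0.84 to 0.85). The correlations of Fcer2a, with Mapk11, H2-Ob and Lta (r from 0.60 to 0.70), and of Fcrl1, with Fry, Prkcb and Cytip (r from 0.69 to 0.70), were lower, and both genes were dim in the 3 Gy groups. Among the members, Tnfrsf13c and Fcrla were the most alike pair, with a root mean square difference of 0.36 and a within-group r of 0.91, or 0.89 over the 30 mice without the x-ray group. Fcmr and Fcrla had an r of 0.83, or 0.69 without the x-ray group. Fcgr2b and Fcer2a were the least alike, at 5.06.

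No ligand was called in a comparison between exposures. Of 5 listed ligands and other receptors of the BAFF and APRIL family, Tnfsf13b, which encodes BAFF, and Tnfsf12, which encodes TWEAK, could be tested. Tnfsf13b had a median of 1.17 in controls, 1.11 after x-rays, 0.73 at 5%, 0.60 at 15%, 0.77 at 25% and 0.91 after neutrons, with overlapping ranges and with the probe well above background on 6, 5, 4, 3, 5 and 4 arrays. Its difference between neutrons and x-rays was -0.06 ± 0.43 (limma, adjusted p = 0.938). Tnfsf12 differed from x-rays by -1.35 ± 0.34 at 15%, short of the limit on the unadjusted p (limma, adjusted p = 0.0269). Tnfrsf17, which encodes BCMA, the remaining BAFF and APRIL receptor, was not above background on 25 of 36 arrays and Tnfrsf12a did not pass the filter on spread, so neither was tested.

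Of 19 genes listed for BAFF receptor signalling, 16 were tested. The list and its counts include Sp110, a nuclear body gene that is not a step of the signalling described above. Against controls, 11 of 16 were called lower after x-rays, where 16.9% of all genes were, 9 at 5% (14.1%), 8 at 15% (16.5%), 9 at 25% (13.9%) and 8 after neutrons (20.5%). Against x-rays, 4 of 16 were called higher in neutron mice, where 6.5% of all genes were. They were Birc2, a ubiquitin ligase that keeps NIK low, at 3.26-fold, Map3k14, which encodes NIK, at 2.67-fold, Traf3, the adaptor that joins them, at 3.13-fold, and the nuclear body gene Sp110 at 3.74-fold. Against the 25% field, 4 of 16 were called higher, where 4.02% of all genes were, namely Birc2 at 3.48-fold, its relative Birc3 at 1.83-fold, Map3k14 at 1.91-fold and Nfkb2, the substrate of this pathway, at 1.93-fold. Apart from Birc2 and Sp110, these were named after their values were seen. The median of the list was 0.76 in the first comparison and 0.60 in the second, beside 0.09 and 0.05 over all genes. Traf3 was at -1.72 from controls after x-rays and at -0.08 after neutrons, on the log2 scale. Against x-rays at 15%, the 1 listed gene called was Sp110, at 2.41 higher (limma, adjusted p = 0.0172). That call is therefore not of a step of BAFF receptor signalling. No gene of the list was called at 5% or 25%. Neutron and x-ray arrays were scanned in different sessions, and 15% and x-ray arrays shared only 1 slide.

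Of 11 partners of CD23 and of the inhibitory receptors, 10 were tested. Cr2 encodes CD21, the complement receptor that CD23 binds. The lowest, median and highest control mice were at 6.25, 6.52 and 7.37, the x-ray mice at 3.29, 4.02 and 5.51 and the neutron mice at 4.92, 5.29 and 5.62. The 5% mice were at 1.52, 2.77 and 3.12, the 15% mice at 2.20, 3.13 and 3.48 and the 25% mice at 1.72, 2.26 and 2.998. Cr2, like Fcer2a, had lower means in the mixed fields than after x-rays, and at 25% the difference was called, at -1.92 ± 0.36 on the log2 scale (limma, adjusted p = 0.0280), with no overlap between the groups. At 5% it was -1.63 and at 15% -1.28, neither called (limma, adjusted p = 0.0774 and 0.0478). Cr2 was 7.77-fold higher in neutron mice than in the 25% field (limma, adjusted p = 6.70e-06). Blnk, the adaptor downstream of the B-cell receptor, was 6.15-fold higher in neutron than in x-ray mice (limma, adjusted p = 0.00235) and 5.45-fold higher than in the 25% field. Syk, the kinase above it and named after its values were seen, was 2.09-fold higher in neutron than in x-ray mice. No 25% or neutron array shared a scan session with an x-ray array. Session therefore cannot be told apart from exposure in those comparisons of Cr2, Blnk and Syk with x-rays.

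Of 14 other Fc receptors and Fc receptor-like genes, 11 were tested and 0 were called by limma in any of the 7 comparisons between exposures. At 5%, 15% and 25% against x-rays the list had medians of -0.05, 0.20 and 0.23 on the log2 scale, and in neutron mice 0.31 against x-rays. The myeloid receptor genes Fcgr1, Fcgr3 and Fcgr4 were within 0.55 of the controls on the log2 scale in all 5 exposures. Against controls, 1 of the 11 was called lower after x-rays, where 16.9% of all genes were, and 2 after neutrons (20.5%). In the mixed fields 1 was called lower at 5% (14.1%), 1 at 15% (16.5%) and 1 at 25% (13.9%). After x-rays, at 15% and after neutrons 1 was called higher, beside 12.9%, 12.6% and 16.1% of all genes. Fcrl5, the neighbour and relative of Fcrl1 on chromosome 3, lay above controls where Fcrl1 lay below. Its signal was 0.90 higher than in controls after x-rays, 1.10 higher at 15% and 1.37 higher after neutrons on the log2 scale, all called, and 0.62 and 0.61 higher at 5% and 25%, not called. It was picked out after its values were seen.

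Fcrla and Fcgr2b lie next to each other on chromosome 1 with 1 predicted gene, Gm39701, between them in the RefSeq order of GRCm38, and they differ more in these data than Fcrla and the unlinked Tnfrsf13c, with root mean square differences of 3.79 and 0.36. All 7 members matched a RefSeq promoter, 9 in all because Fcer2a has 3. The 250 bases before the start were searched on both strands for the octamer ATGCAAAT, the EBF1 motif CCCNNGGG, the PU.1 motif GAGGAAGT and the NF-κB motif GGACTTTCC. Of 32841 promoters, 1.6% held the octamer, 11.8% the EBF1 letters, 2.44% the PU.1 letters and 0.283% the NF-κB letters. Among the 9 member promoters only that of Fcrl1 held a match, to PU.1 on the opposite strand 15 bases before the start, and the other 8 do not hold these letters in this window. The sequences of the neighbouring pair and of Fcrl1 are shown 5′ to 3′ on the gene's strand, from GRCm38.p6, at chr1:170927584-170927833 for Fcrla and chr1:170976072-170976321 for Fcgr2b, both minus strand, and chr3:87376137-87376386 for Fcrl1, plus strand. Capitals mark the PU.1 letters.
Fcrla: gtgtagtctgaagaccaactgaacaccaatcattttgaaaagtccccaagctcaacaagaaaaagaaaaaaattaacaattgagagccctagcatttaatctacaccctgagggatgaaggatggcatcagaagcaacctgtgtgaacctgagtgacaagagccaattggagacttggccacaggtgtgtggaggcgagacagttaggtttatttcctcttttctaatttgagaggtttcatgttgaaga
Fcgr2b: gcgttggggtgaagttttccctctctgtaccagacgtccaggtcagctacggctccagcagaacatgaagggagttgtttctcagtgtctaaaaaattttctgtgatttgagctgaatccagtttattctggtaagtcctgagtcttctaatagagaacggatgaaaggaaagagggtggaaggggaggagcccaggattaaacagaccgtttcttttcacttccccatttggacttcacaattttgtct
Fcrl1: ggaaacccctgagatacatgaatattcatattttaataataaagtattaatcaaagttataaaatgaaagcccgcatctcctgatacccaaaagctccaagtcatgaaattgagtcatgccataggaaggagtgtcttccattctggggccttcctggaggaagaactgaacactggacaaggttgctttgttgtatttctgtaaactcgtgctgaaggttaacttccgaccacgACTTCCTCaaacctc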

How the data were processed

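Blood RNA of 36 mice, cleared of globin transcripts, was labelled with Cy3 and hybridized to 1-colour Agilent mouse arrays. Per the file headers and the labels, the authors' Feature Extraction 12.0.2 files hold the background-subtracted signal intensity of each spot, and the deposited series table holds log2 values that the authors had normalized to the median. Arrays were matched to groups by sample title, and every column used belonged to 1 sample. Here log2 of the processed signal intensity was centred on each array's median, non-uniform spots were dropped and spots of a probe averaged. Following the authors' filters, a probe had to be significantly above background on more than 75% of arrays and to deviate 1.5-fold from its median on at least 20% of them, which left 17960 probes. The brightest probe stood for a gene, giving 15083 genes.

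Each comparison was fitted on its 12 arrays with limma 3.58.1 in R 4.3.3, as the closest counterpart of the random variance test named in the methods, with Benjamini-Hochberg adjustment over all genes and the authors' limits of p below 0.001 and adjusted p below 0.05. The fit was tested on simulated data. The members and all gene lists were chosen with earlier results of these data known. Named were all members with every probe, the 3 nearest genes by each likeness measure, the reference genes, the ligands and, of other lists, the 2 called genes that differed most. One item of the B-cell lists is not reported here, which reduced the reference to 4 genes once the values were known. The deposited table holds 7 of the 9 member probes and served as an alternative. Sequences of probes came from the array files (mm9) and promoters from RefSeq (GRCm38.p6), and protein sequences were not used here. Other scalings, background corrections, filters, blocks, array weights and left-out arrays were tried.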

Additional observations from a re-analysis of the deposited data

Results flagged for a closer look

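Among the 7 members, read by the brightest probe, the differences between exposures that passed the test were all between neutron mice and another group. On the log2 scale the neutron mice were above x-rays by 3.52 for Tnfrsf13c, 3.91 for Fcmr, 3.69 for Fcrla, 3.16 for Fcer2a and 2.95 for Fcrl1, and above the 25% field by 2.90, 3.399, 3.02, 3.92 and 2.53 in the same order. For Fcrl1 the dim group was not well above background, so these measured differences are no bound. Both comparisons share the neutron mice.

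In 4 of 54 groups of arrays, 1 mouse stood far from the others of its group for one probe, by Dixon's test, where chance gives about 1 in 20 groups. They were replicate 1 of the neutron group in the dimmer Tnfrsf13c probe, at 3.28 beside 0.59 for the next mouse, and replicate 2 of the 15% field in the brighter Tnfrsf13b probe, at 0.11 beside 1.58. Replicate 5 of the x-ray group was at 2.91 beside 1.14 in the dimmer Tnfrsf13b probe, and replicate 4 of the neutron group at 4.07 beside 4.56 in Fcgr2b.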

How the results depend on the processing

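The 5 members called higher in neutron mice kept their direction under every alternative in which they could be tested. Left-out arrays aside, 130 of these fits kept the call and 9 lost it. With normexp background correction 0 members were called against x-rays and 0 against the 25% field, and the differences of the 4 of these members that it left were smaller, 0.88 to 2.37 and 1.01 to 2.02 on the log2 scale. The corrected median lay above the uncorrected median plus the offset on 11 of 36 arrays under that setting. With plain subtraction of the local background, chosen after seeing the data, Fcrl1 was 0.62 above x-rays (adjusted p = 0.0147) and not called. A stricter background filter left 5 members and 3 calls against x-rays, 3 against the 25% field and 3 for neutrons against controls. Of the 10586 genes it left, 1816, 1426 and 4616 were called in the same order, in either direction. Against x-rays at 5%, 1 member was called in a model over all 36 arrays and 1 with array weights, where 708 and 802 of 15083 genes were called. At 15%, 1 was called in that model and 1 with the mean of a gene's probes, where 1543 and 583 genes were called. At 25%, 1 was called with scan session as a random block, where 5124 genes were called. With slide as a block, 3 members were called against controls at 5% and 3 at 15%. Among the dimmer probes, 2 calls became 0 with normexp and 4 with array weights, and the Tnfrsf13b call at 25% held in 4 of 12 fits with 1 array left out. Leaving out 1 array at a time gave 5 to 5 calls for neutrons against x-rays, 5 to 6 against the 25% field and 0 to 0 in the other comparisons between exposures.

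Some directions turned, none of them in a called difference between exposures. Fcer2a at 15% against x-rays became 0.21 with slide or scan session as a block. Fcgr2b in neutron mice against x-rays became -0.32 with normexp and lay between -0.0903 and 0.547 with 1 array left out, negative without x-ray replicate 5. Against the 25% field it became 0.14 with slide as a block and lay between -0.272 and 0.0100 with 1 array left out, positive without replicate 4 of that field. Tnfrsf13b in neutron mice became -0.0786 against x-rays with the mean of its probes, -0.93 in the deposited table, which holds only its dimmer probe, and -0.0256 against the 25% field with slide as a block. Against controls, Tnfrsf13b after x-rays became 0.35 in that table, from the same dimmer probe, and Fcgr2b at 15% became 0.45 with slide or session as a block. The cause of the other turns was not tested. Fcmr relative to the reference genes after neutrons turned from -0.02 to 0.04 with all 14 B-cell markers. For the difference from the reference genes, 1 further choice of reference was not run. Of 29 further member values given as ranges, 52 of 756 alternative fits changed sign and 0 were called.

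Replicate numbers are shared between groups without pairing mice. Same-numbered arrays had a mean correlation of deviations of 0.04 over 90 pairs, beside -0.01 over 450 others. With the replicate block, 5 members were called for neutrons against x-rays and 5 against the 25% field, 0 in the other comparisons between exposures, and 5, 6, 6, 6 and 5 against controls. The block moved the calls over all genes from 394 to 1314 at 25% against x-rays and from 4500 to 2906 for x-rays and from 3484 to 2102 for the 5% field against controls.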
